A study of Mus musculus with 12 samples.

Results

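The genes described here are Lcn2 and Apod, which encode the secreted lipocalins lipocalin 2 and apolipoprotein D, with the lipocalin genes Ptgds, Orm1 and Orm2 and the acute-phase genes Saa3, Hp and Serpina3n. Every probe set that names a single member gene was taken, which gave 10 probe sets for the 8 genes, of 34945 single-gene probe sets for 18193 genes. Lcn2 and Apod were chosen because they stood out in the comparison of the treated with the control mice, so that comparison is a description for the members, without a test. All mice were ob/ob, which lack working leptin and become obese, male and aged 3 months, and were fed normal chow. A group of 6 received 1 mg/kg of an agonistic antibody to the receptor FGFR1 once into the abdominal cavity, and 6 pair-fed mice received control IgG. Brown adipose tissue was taken on day 4. RNA of each mouse went onto 1 Affymetrix array, and levels are log2 values of a probe set, which compare arrays but not genes.

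Lipocalins are small secreted proteins folded into a barrel that carries a hydrophobic molecule. Lipocalin 2 binds bacterial iron carriers and is made by fat cells, macrophages and neutrophils, and apolipoprotein D carries lipids such as arachidonic acid and travels on high-density lipoprotein. The acute-phase genes code for plasma proteins whose synthesis, mostly in liver and partly in fat, changes in inflammation under cytokines that act through STAT3, NF-kappaB and C/EBP factors.

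The upstream sequences of Lcn2, Apod and Saa3 are shown because Lcn2 and Apod were the members whose groups separated and Saa3 is a fat-expressed acute-phase member. RefSeq windows on GRCm38.p6 were at hand for 6 of the 8 members. Each holds the 250 bases before the gene start, written 5′ to 3′ on the gene's strand, and capitals mark matches to the C/EBP core TTGCNNAA on either strand.
Lcn2 (chr2:32387740-32387989, minus strand): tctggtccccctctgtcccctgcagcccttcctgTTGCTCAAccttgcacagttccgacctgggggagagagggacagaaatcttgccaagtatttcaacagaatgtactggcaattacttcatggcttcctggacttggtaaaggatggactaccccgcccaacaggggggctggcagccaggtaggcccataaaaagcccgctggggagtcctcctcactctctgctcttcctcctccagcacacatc
Apod (chr16:31314809-31315058, minus strand): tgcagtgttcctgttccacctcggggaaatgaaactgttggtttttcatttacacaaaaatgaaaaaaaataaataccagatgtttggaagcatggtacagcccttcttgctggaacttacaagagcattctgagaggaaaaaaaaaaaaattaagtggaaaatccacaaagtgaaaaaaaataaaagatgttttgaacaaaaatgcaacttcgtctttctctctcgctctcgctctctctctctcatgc
Saa3 (chr7:46715677-46715926, minus strand): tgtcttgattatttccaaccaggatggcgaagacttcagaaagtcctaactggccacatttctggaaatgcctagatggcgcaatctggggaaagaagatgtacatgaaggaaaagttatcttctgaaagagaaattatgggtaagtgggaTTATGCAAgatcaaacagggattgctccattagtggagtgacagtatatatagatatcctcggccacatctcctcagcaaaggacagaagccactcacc
The Lcn2 match begins 216 bases and the Saa3 match 99 bases before the gene start, and the Apod window holds none. Of the 6 member windows, 3 (Lcn2, Orm2 and Saa3) held this core, as did 9.55% of 27025 windows of the same length. The STAT motif TTCNNNGAA was in 0 of the 6 and in 7.18% of all windows. The glucocorticoid receptor half-site TGTTCT was in 2 of the 6 (Orm2 and Serpina3n) and in 16.2% of all, and the NF-kappaB motif in 1 (Ptgds) and in 7.01% of all. Both strands were searched, and no matches of different motifs overlapped. A match is a stretch of letters and does not show that a factor binds.

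Lcn2 was measured by a single probe set, 1427747_a_at. The 6 control IgG mice, replicates 1 to 6, had 8.02, 7.77, 8.58, 7.74, 8.18 and 8.54. The anti-FGFR1 mice had 9.28, 9.71, 10.12, 9.94, 10.34 and 9.69. All treated mice lay above all controls, with a gap of 0.69 between the highest control and the lowest treated mouse. The means were 8.14 ± 0.36 and 9.85 ± 0.37 (SD, n = 6 per group), a log2 difference of 1.71 ± 0.18 (SE). The spread was alike in both groups (SD ratio 1.02), so the higher level was shared by all treated mice and the animals differed among themselves about as much as controls did. In whole tissue, a change in the number of cells of a type and a change in RNA per cell cannot be told apart.

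Apod was measured by a pair of probe sets. On the brighter, 1416371_at, controls had 9.77, 9.73, 9.92, 10.004, 10.19 and 9.95, and anti-FGFR1 mice had 10.83, 10.76, 10.84, 11.22, 10.69 and 10.43. On the dimmer, 1444564_at, controls had 7.56, 7.51, 7.42, 7.28, 7.40 and 7.59, and anti-FGFR1 mice had 8.15, 8.34, 8.14, 8.67, 8.08 and 8.24. The groups did not overlap on either, and anti-FGFR1 replicate 4 was the highest mouse on both. The log2 differences were 0.87 ± 0.11 and 0.81 ± 0.09 (SE, n = 6 per group), or 1.82-fold and 1.75-fold. Within groups, however, the readings of the mice hardly ran in parallel, with r = 0.37 and rho = -0.10 over 12 arrays, so the order of single mice for Apod depends on the probe set.

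The other lipocalins among the members showed no such separation. Ptgds encodes lipocalin-type prostaglandin D synthase, a lipocalin that is also an enzyme. Its brighter probe set, 1423859_a_at, ran from 9.21 to 9.66 in controls (median 9.45) and from 9.08 to 9.64 after anti-FGFR1 (median 9.38), a difference of -0.08 ± 0.09. The dimmer one, 1423860_at, ran from 7.26 to 8.21 (median 7.78) and from 7.04 to 7.77 (median 7.32), a difference of -0.38 ± 0.15. Both pointed down with overlapping groups, and their sizes were unlike.

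Orm1 and Orm2 encode alpha-1-acid glycoproteins, plasma lipocalins that bind drugs and steroids. Orm1 (1451054_at) had 10.69, 11.17, 11.01, 10.91, 10.98 and 10.55 in controls and 11.20, 11.11, 11.11, 11.01, 11.32 and 11.11 after anti-FGFR1. Control replicates 1 and 6 were the lowest mice, and 2 of 6 treated mice lay above all controls. The difference was 0.26 ± 0.09, with an SD of 0.23 in controls and 0.11 after treatment. Orm2 (1420438_at) ran from 5.48 to 5.97 in controls and from 5.17 to 5.90 after treatment, a difference of -0.11 ± 0.11. Only 12.5% of genes were as dim as Orm2 or dimmer, so its probe set says little about the transcript. The Orm genes are near-identical neighbours, and their probe sets may share targets.

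The acute-phase members outside the lipocalin family were also close between groups. Saa3, the serum amyloid A made by fat cells and macrophages, had 8.18, 8.17, 7.81, 8.17, 8.04 and 7.98 in controls. After anti-FGFR1 it had 8.19, 8.38, 7.98, 8.27, 8.20 and 8.31. Here 5 of 6 treated mice were above all controls, and replicate 3 was the lowest mouse of each group. The difference was 0.16 ± 0.08.

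Hp encodes haptoglobin, which binds free haemoglobin and is made in fat as well as liver. It ran from 14.03 to 14.25 in controls and from 14.05 to 14.22 after anti-FGFR1, a difference of -0.04 ± 0.05. Only 29 of the genes were brighter, so Hp sat near the top of the range, where differences can be compressed. Serpina3n, a serine protease inhibitor, had 8.84, 8.85, 9.03, 9.15, 8.96 and 9.29 in controls and 8.62, 8.67, 9.01, 8.96, 9.11 and 8.69 after treatment. Of the treated mice 3 lay below all controls, and the difference was -0.17 ± 0.10.

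**Figure D1:**
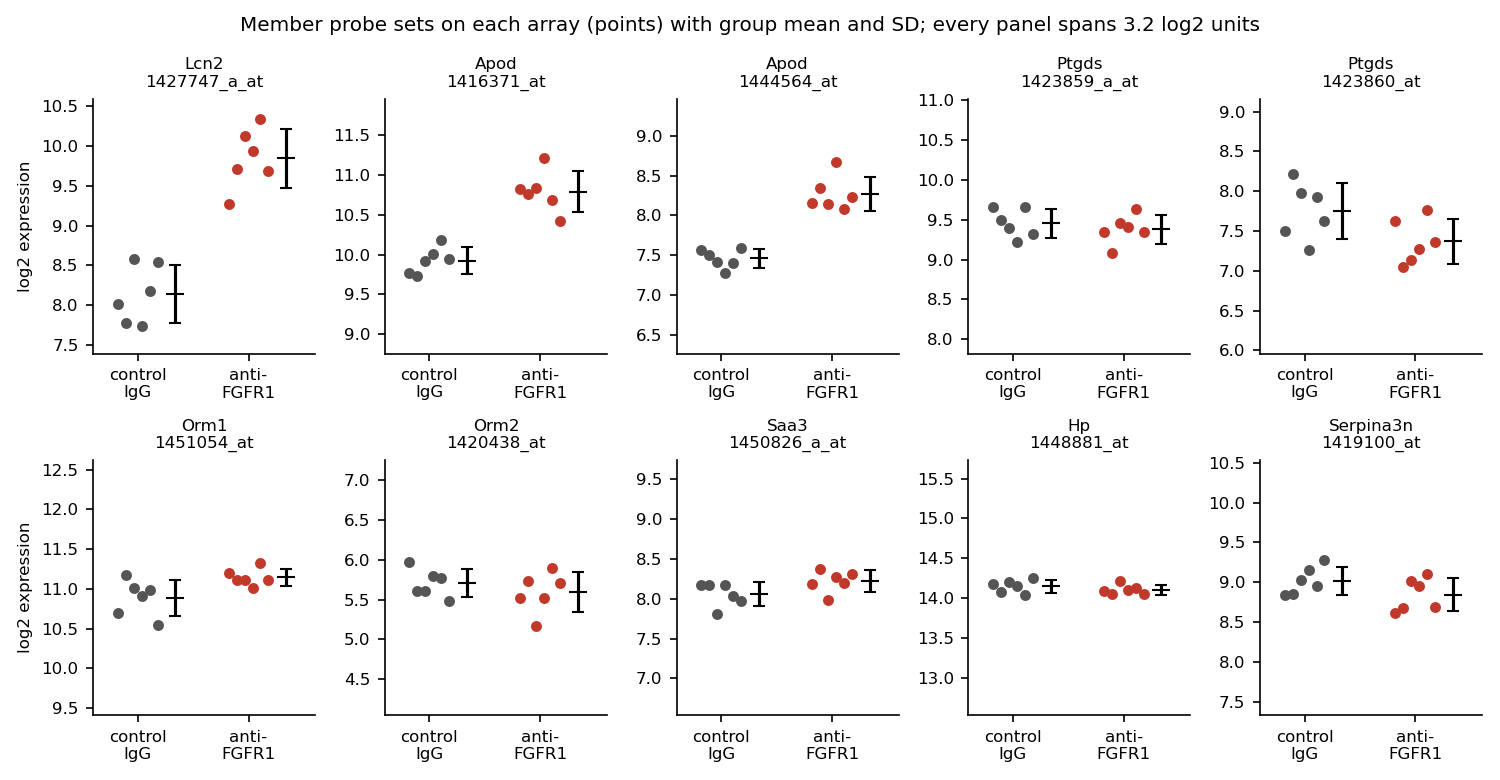
Log2 expression (vertical axis) of each member probe set in the 6 control IgG and 6 anti-FGFR1 mice; points are arrays, bars mean and SD, and every panel spans the same height. The groups separate for Lcn2 and both Apod probe sets and overlap in the 7 others.

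The groups thus did not overlap in 3 of 10 member probe sets, all higher after anti-FGFR1, where 1.23% of all single-gene probe sets lay higher without overlap and 4.56% in either direction. Counted by gene on the brightest probe set, 2 of 8 members passed the limma threshold, both higher, beside 8.03% of all genes in either direction. The members were chosen on this contrast, so these counts describe the choice. The median difference was 0.06 over the members and 0.01 over all genes.

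Among 16 other measured lipocalin genes, such as Rbp4, Apom and the odorant-binding and major urinary protein genes, 1 rose and 0 fell, where 2.94% of all genes (535) rose and 5.09% (926) fell; a second quantile normalization gave 732 and 760. The gene that rose was Orm3, the third alpha-1-acid glycoprotein gene. It ran from 7.83 to 8.16 in controls (median 7.97) and from 8.16 to 8.45 after anti-FGFR1 (median 8.35). The treated mice were above all controls, though the nearest mice of the groups almost touched. Its difference was 0.36 ± 0.07 (SE, limma adjusted p = 0.0059, n = 6 per group). The call was lost (0.32) when the fit held a covariate for RNA length, the log2 signal of 3' minus 5' control probe sets of Actb and Gapdh (the 3' to 5' covariate). Rbp4, the retinol carrier of plasma, was at -0.15 ± 0.06, short of the threshold (limma adjusted p = 0.159), and Apom, an apolipoprotein of high-density lipoprotein, differed by 0.07 ± 0.05. The remaining 13 did not pass and lay between -0.14 and 0.14, with control levels from 4.23 to 7.69, so most were dim. The median of the list was 0.02.

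Of 33 other measured acute-phase genes, 1 rose and 6 fell, beside 2.94% and 5.09% of all genes, and their median was 0.03. The groups did not overlap in 5 of them, 1 higher and 4 lower, where 5.12% of all genes were without overlap. Cp, which encodes ceruloplasmin, the copper-carrying ferroxidase of plasma, was the gene that rose. Its controls had 10.28, 10.43, 10.47, 10.53, 10.38 and 10.45 and its treated mice 10.87, 10.93, 11.04, 10.96, 11.00 and 10.59. The groups were apart on every array, and anti-FGFR1 replicate 6 was the lowest treated mouse. The difference was 0.48 ± 0.07 (limma adjusted p = 0.00081, n = 6 per group), and all 8 Cp probe sets were above 0.

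The genes that fell were of several kinds. The metallothioneins Mt1 and Mt2, which bind zinc and copper, fell by 0.34 ± 0.05 and 0.52 ± 0.09 in log2 units (limma adjusted p = 0.0016 and 0.0019). Mt2 ran from 12.02 to 12.49 in controls and from 11.61 to 11.93 after anti-FGFR1, without overlap. Averaging both Mt1 probe sets gave -0.15, which did not pass, since the dimmer one was at 0.04.

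Lbp, which presents bacterial lipopolysaccharide to its receptor, fell by 0.55 ± 0.12 (limma adjusted p = 0.013). It ran from 9.01 to 9.71 in controls and from 8.51 to 9.22 after anti-FGFR1, and 5 of 6 treated mice lay below all controls. Its dimmer probe set was at 0.10 ± 0.08, and the call was lost with the mean of both (-0.22). Hpx, hemopexin, the plasma scavenger of heme, fell by 0.44 ± 0.11 (limma adjusted p = 0.028). Its call was lost when control replicate 3 or 5, or anti-FGFR1 replicate 2, 3 or 5, was left out, where leaving out 1 array gave -0.50 to -0.37. Nor did Hpx pass with either the 3' to 5' or the macrophage covariate, or without the array lowest in muscle markers in each group.

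Lrg1, a leucine-rich glycoprotein induced through STAT3, fell by 0.35 ± 0.07 (limma adjusted p = 0.0046), from 12.43 to 12.84 in controls and from 12.14 to 12.37 after anti-FGFR1, a call lost with the 3' to 5' covariate (-0.31). Ptx3, a pentraxin of innate immunity that is outside the naming rule and was chosen after its values were seen, fell by 0.46 ± 0.09 (limma adjusted p = 0.0066). The serum amyloid genes nearest to Saa3 did not pass: Saa1 differed by 0.03 ± 0.08, Saa2 by 0.12 ± 0.07 and Saa4 by 0.07 ± 0.07. Steap4, a metalloreductase of fat cells, differed by 0.03 ± 0.06. With the 3' to 5' covariate, 2 acute-phase genes rose (Cp and Fgl1) and 2 fell (Mt1 and Mt2). None of 7 measured negative acute-phase genes, which decline in the liver's response, passed limma, and their median was 0.07. Of them 2 had an unadjusted p under 0.05, beside 4081 of all 18193 genes.

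**Figure D2:**
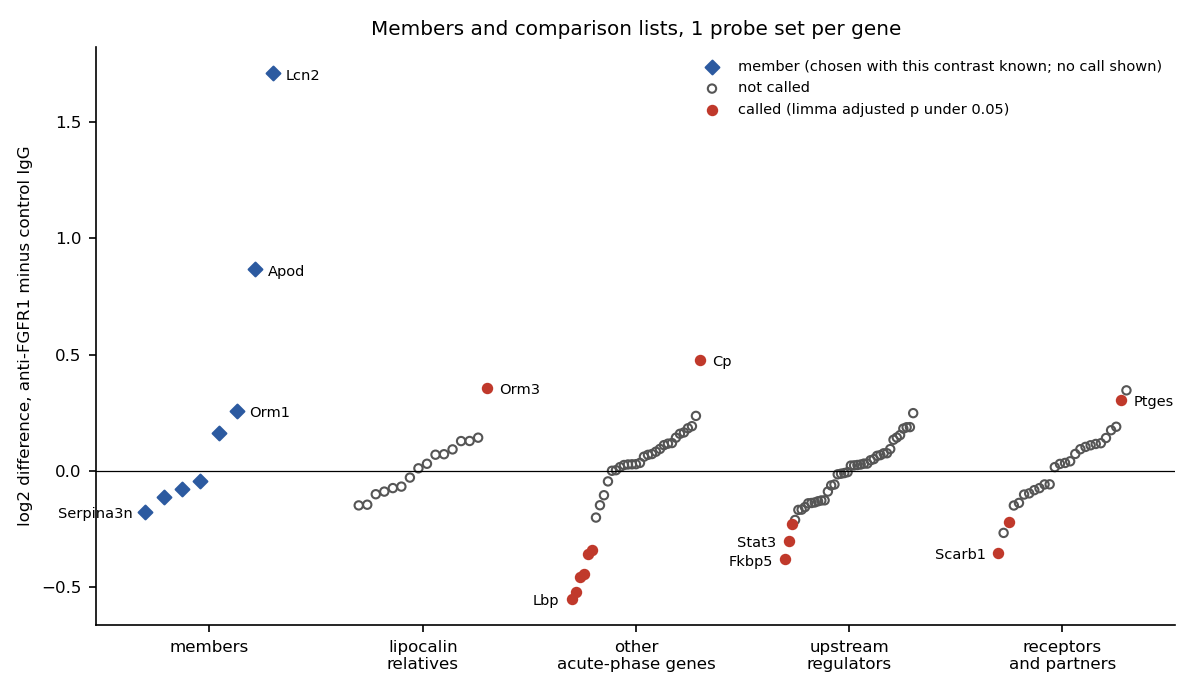
Log2 difference (anti-FGFR1 minus control IgG, vertical axis) of each gene in the members and 4 comparison lists, ordered by size within a list; red points passed limma at an adjusted p under 0.05, and members carry no call. Lcn2 (1.71) and Apod (0.87) lie above the whole comparison lists, whose highest gene is Cp (0.48).

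The cytokines, receptors and transcription factors that control acute-phase genes were examined next. Of 40 measured, 3 fell and 0 rose under limma, where 5.09% of all genes fell and 2.94% rose. An unadjusted p under 0.05 was found for 16 of them, beside 4081 of all 18193 genes. The median was 0.01. Stat3, the factor downstream of interleukin 6, had 10.94, 11.07, 11.18, 11.04, 11.09 and 11.13 in controls and 10.74, 10.80, 10.71, 10.81, 10.84 and 10.77 after anti-FGFR1. All treated mice were below all controls, and Stat3 fell by 0.30 ± 0.05 (limma adjusted p = 0.0011). All 4 Stat3 probe sets were below 0, 1 of them called. Il6st, the shared receptor subunit gp130 of the interleukin 6 family, fell by 0.23 ± 0.05 (limma adjusted p = 0.015), and Fkbp5, a chaperone induced by glucocorticoids, by 0.38 ± 0.07 (limma adjusted p = 0.0040).

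Il6st (-0.18) and Fkbp5 (-0.34) no longer passed with the 3' to 5' covariate, and Stat3 still did. Il1b, interleukin 1 beta, differed by 0.13 ± 0.04 with all 6 treated mice above all controls but did not pass (limma adjusted p = 0.060). It passed without control IgG replicate 1, with the macrophage covariate and with the mean of probe sets. Il1b has 1 probe set, so in the last setting its values were unchanged and only the fit across other genes differed. Il6 (-0.15 ± 0.06), which was very dim, Tnf (0.08 ± 0.06), Socs3 (-0.14 ± 0.05), Cebpb (-0.17 ± 0.07), Cebpd (0.03 ± 0.10), Nfkbia (-0.14 ± 0.07) and Nfkbiz (0.05 ± 0.10) did not pass. Of 5 Nfkbia probe sets all were below 0 and 1, not the brightest, passed (-0.38). With the macrophage covariate 1 regulator rose and 7 fell, among them Socs3 (-0.18).

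Of 26 measured receptors and partners of the member proteins, 1 rose and 2 fell, beside 2.94% and 5.09% of all genes. Their median was 0.03. Slc22a17 and Lrp2, receptors that take up lipocalin 2, differed by 0.03 ± 0.05 and 0.18 ± 0.06 (limma adjusted p = 0.746 and 0.073); Lrp2 passed when control replicate 1 or anti-FGFR1 replicate 4 was left out, with the macrophage covariate and with the filter on dim genes. Bsg, basigin, a receptor for apolipoprotein D, differed by 0.04 ± 0.06. Around prostaglandin D synthase, Ptges, which makes prostaglandin E, rose by 0.31 ± 0.08 (limma adjusted p = 0.034). That call was lost with the replicate block and when control replicate 2 or anti-FGFR1 replicate 1, 2, 3, 5 or 6 was left out. It was also lost with the macrophage covariate and without the array lowest in muscle markers in each group. Ptgs2 (0.12 ± 0.05) and Hpgds (0.02 ± 0.10) did not pass. Scarb1, a lipoprotein receptor that also binds serum amyloid A, fell by 0.35 ± 0.07 (limma adjusted p = 0.0040), and Blvra, biliverdin reductase, by 0.22 ± 0.05 (limma adjusted p = 0.0091). Cd163, the macrophage receptor for haptoglobin with haemoglobin, differed by 0.19 ± 0.12.

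Other cells of the tissue also make member genes. Neutrophils store lipocalin 2 in granules. None of 14 neutrophil markers passed limma (3 at an unadjusted p under 0.05, beside 4081 of all 18193 genes), and 13 were above 0. Their mean per array was 6.95 to 7.24 in controls and 7.07 to 7.24 after anti-FGFR1 (two-sided exact permutation p = 0.268, Benjamini-Hochberg adjusted over 7 lists 0.470). The granule genes that accompany lipocalin 2 differed little, Ltf by 0.03 ± 0.05 and Mmp8 by 0.08 ± 0.07. The neutrophil markers S100a8 and S100a9 differed by 0.07 ± 0.16 and 0.20 ± 0.08, and none of these genes passed. S100a9 passed when control replicate 1 was left out and with the macrophage covariate (0.30). With the neutrophil mean as a covariate, the Lcn2 difference was 1.64. The neutrophil markers were at level percentiles from 20.4 (Camp) to 54.5 (Chil3), with Mmp8 at 20.6 and Ltf at 45.5. RMA tends to pull differences of dim probe sets toward 0, which limits what these values and the covariate can show.

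Of 15 macrophage markers, 3 rose, where 2.94% of all genes rose and 5.09% fell. Among the 3 was Adgre1, which encodes F4/80 (0.63 ± 0.15, limma adjusted p = 0.020), a call lost with the 3' to 5' covariate (0.75). The others were Cd5l (0.60 ± 0.09, limma adjusted p = 0.00083) and Csf1r (0.37 ± 0.10, limma adjusted p = 0.031). The groups overlapped for Adgre1 and Csf1r and not for Cd5l. Of the 15 markers, 12 were above 0 and 3 below. The mean of the 15 markers was 9.44 to 10.06 in controls and 9.65 to 10.01 after anti-FGFR1, a difference of 0.21 (two-sided exact permutation p = 0.102, adjusted 0.237). With it as a covariate, Lcn2 differed by 1.39 and Apod by 0.87 and 0.80. The part of macrophages in the Lcn2 difference beyond these values was not tested. The liver markers, which would accompany acute-phase transcripts of hepatocytes, had 0 of 12 called by limma (4 at an unadjusted p under 0.05) and a mean of 6.97 ± 0.06 and 7.05 ± 0.03 (SD, n = 6 per group, exact permutation p = 0.017, adjusted 0.061), which passed when control replicate 1 was left out (0.101). The liver markers were at level percentiles from 5.04 (Fgb) to 59.0 (Ttr), which limits them in the same way. Brown adipocyte markers had 2 of 11 called, both higher (Elovl3 by 0.76 and Cox7a1 by 0.16). Of the 11, 9 were above 0 and 2 below, and Elovl3 had by far the largest difference. The mean of the 11 was 0.15 higher (exact permutation p = 0.0043, adjusted 0.030). That call was lost when control replicate 3 or 6 or anti-FGFR1 replicate 1, 2, 4 or 5 was left out. Ucp1 was at 14.5 in both groups and Cidea at 14.4 and 14.3, so the tissue carried its label's markers. Of 12 fibroblast markers, 3 rose (Lum by 0.76, Pdgfra by 0.62 and Col3a1 by 0.42) and 2 fell (Pi16 by 0.50 and Dpt by 0.37). Of 10 Schwann cell markers, S100b rose by 0.36 and Mbp fell by 0.23. The means of these lists, whose members went both ways, differed by 0.06 and 0.02 and did not pass (exact permutation p = 0.532 and 0.422, both adjusted to 0.556).

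Skeletal muscle markers varied most, from 9.61 to 11.8 in controls and from 6.90 to 11.6 after anti-FGFR1 (exact permutation p = 0.556, adjusted 0.556). Without the array lowest in them in each group, Lcn2 differed by 1.69 and Apod by 0.89 and 0.88. The 3' to 5' log2 difference of the Actb and Gapdh control probe sets, a sign of RNA length, had a mean of 0.161 ± 0.031 (SD) in the 6 controls and of 0.203 ± 0.027 in the 6 treated mice (two-sided exact permutation p = 0.037). With it as a covariate, Lcn2 differed by 1.81, Apod by 0.997 and 0.85, and 688 genes were called in place of 1461.

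**Figure D3:**
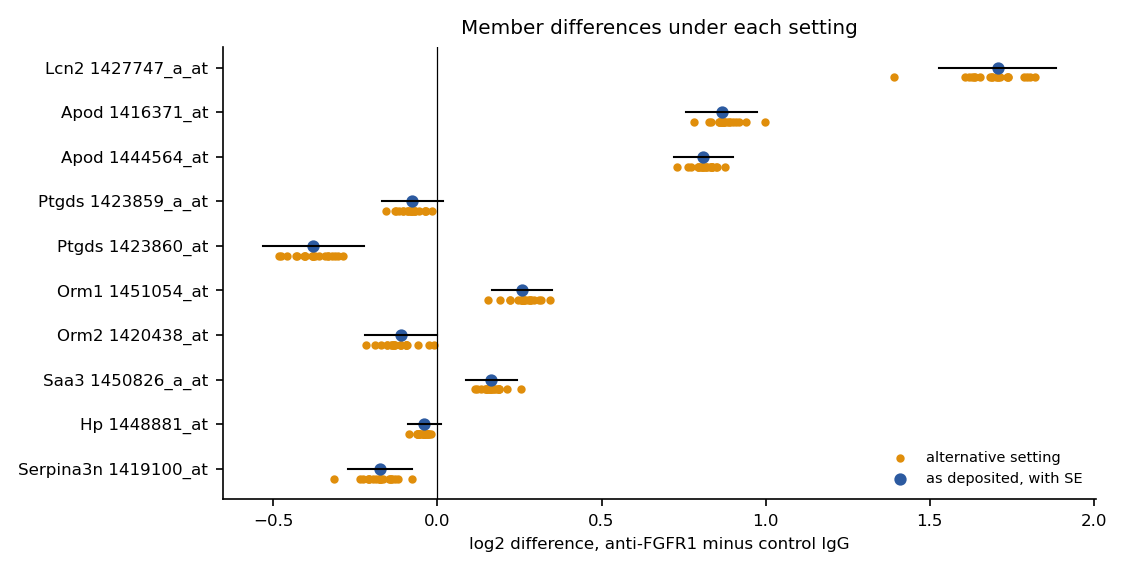
Log2 difference (anti-FGFR1 minus control IgG, horizontal axis) of each member probe set as deposited (blue, with SE) and under each of 21 alternative settings (orange). The replicate block and the trended robust eBayes, which are among them, cannot move a difference. Lcn2 stays between 1.39 and 1.82 and both Apod probe sets between 0.73 and 0.997, while the other members lie between -0.48 and 0.34.

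The spread among mice of the same group is a measure that the choice of members did not use directly. The limma fit of the contrast uses this spread, so the percentiles below are not independent of that choice. Lcn2 had a within-group SD of 0.37, larger than that of 98.8% of genes. Apod and Orm2 (SD 0.22 each), Serpina3n (0.19), Ptgds and Orm1 (0.18 each) were above 94.5%, 94.5%, 91.3%, 89.2% and 88.0% of genes. Saa3 (0.14) was above 74.1% and Hp (0.07) above 14.8%. In 7 of 8, the spread within groups was thus larger than for the median gene. It holds measurement noise as well as differences between mice, which were not told apart, and the percentiles were not matched for level. Orm2 is dim, and the probe sets of Apod hardly agreed on the order of mice.

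After the group means were removed, Lcn2 followed the macrophage marker mean over the 12 arrays with r = 0.81 and rho = 0.75. It did so in each group, with r = 0.82 in controls and 0.88 after anti-FGFR1. Without the 2 arrays farthest from the Lcn2 median r was 0.79, and leaving out 1 array gave 0.77 to 0.85. In controls the mice highest in Lcn2, replicates 3 and 6, were also highest in macrophage markers (9.90 and 10.06).

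Lcn2 went with the neutrophil mean less closely (r = 0.28, rho = 0.34) and with the fibroblast mean at r = 0.65 (rho = 0.52, and r = 0.49 without the 2 farthest arrays). With the skeletal muscle mean it was at r = -0.52 (rho = -0.43, and r = -0.36 without these arrays). Apod, on its brighter probe set, followed none of the immune or fibroblast means, with r = -0.03 for macrophages, -0.31 for neutrophils and -0.08 for fibroblasts. These correlations describe mice whose arrays may have been normalized together, which the sources do not state, and no test of them was made.

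**Figure D4:**
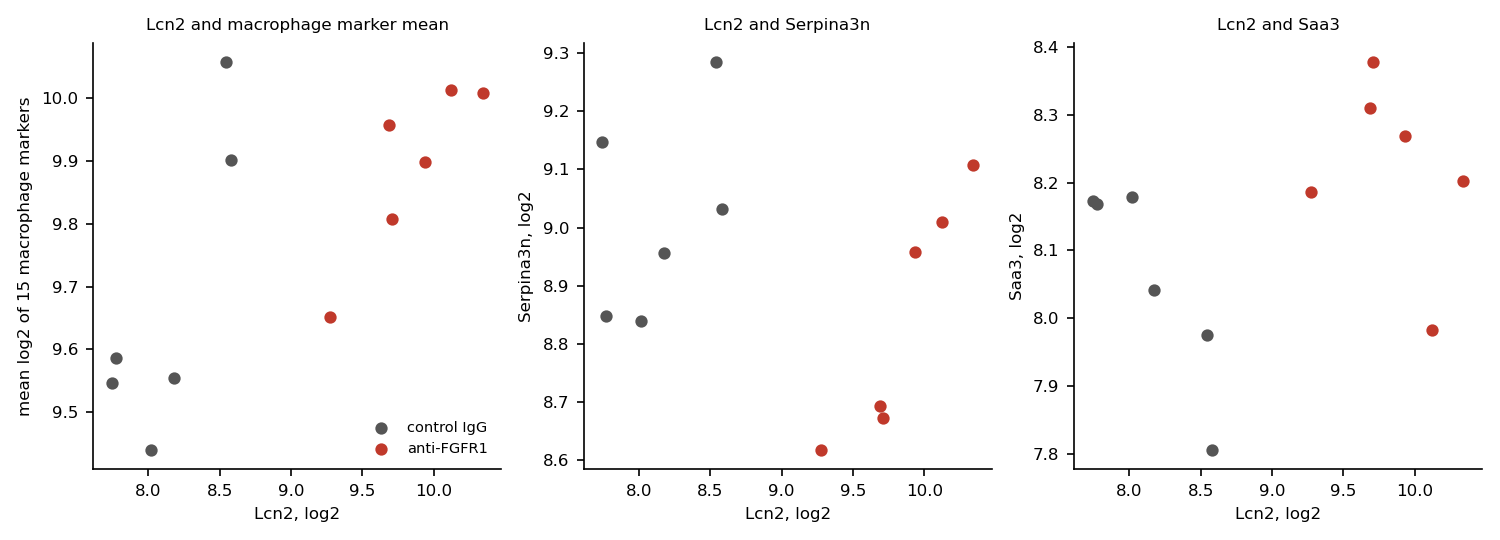
Lcn2 log2 level of each mouse (horizontal axis) against the mean log2 level of the macrophage markers, Serpina3n and Saa3 (vertical axes), with controls grey and anti-FGFR1 red. Within each group Lcn2 goes up with the macrophage mean (r = 0.82 and 0.88) and with Serpina3n (0.45 and 0.94) and down with Saa3 (-0.91 and -0.34).

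Among the members themselves, 6 of 28 pairs had a group-centred r beyond 0.5 in size, and 15 had the same sign in both groups. No share over all gene pairs was computed, so these counts are no result about the members. The 6 pairs are named below because of their size. Lcn2, Hp and Serpina3n formed a set of positive pairs: r was 0.72 for Lcn2 with Serpina3n, 0.57 for Lcn2 with Hp and 0.64 for Hp with Serpina3n (rho 0.67, 0.57 and 0.56). Without the 2 arrays farthest from the median these were 0.56, 0.65 and 0.42. The Lcn2 and Serpina3n pair was at 0.53 without the array lowest in muscle markers in each group. All 3 also went with the macrophage mean, Serpina3n at r = 0.70 (rho = 0.71) and Hp at r = 0.61 (rho = 0.51), or 0.52 and 0.31 without the 2 farthest arrays. Against the skeletal muscle mean Serpina3n was at r = -0.70 (rho = -0.61) and Hp at r = -0.51 (rho = -0.76), or -0.43 and -0.56 without these. Saa3 was at r = -0.60 (rho = -0.64) with the macrophage mean, or -0.49. The part of these cell markers in the pairs was not tested. Saa3 ran against Lcn2 (r = -0.63, rho = -0.57) and Hp (r = -0.63, rho = -0.54), at -0.86 and -0.39 without the 2 farthest arrays, and with Orm2 (r = 0.65, rho = 0.66, then 0.63). The closest pair of Apod was with Serpina3n (r = 0.34, rho = 0.33). So Lcn2 and Apod, both higher in every treated mouse, hardly varied together within groups (r = 0.14, rho = 0.08, and 0.31 without the 2 farthest arrays).

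**Figure D5:**
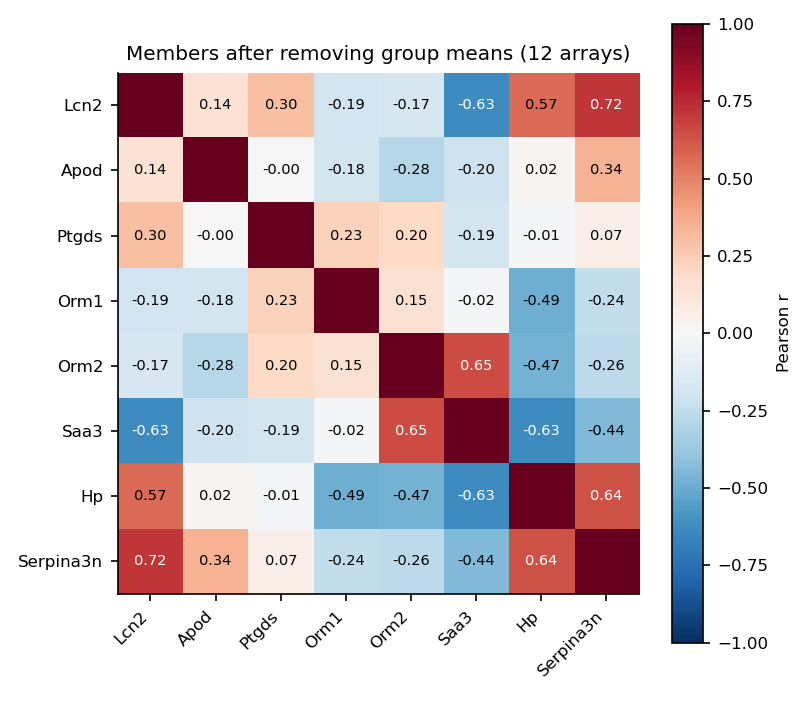
Pearson r between members over 12 arrays after each group's mean was removed (colour and printed value). Lcn2, Hp and Serpina3n form positive pairs (0.57 to 0.72), Saa3 is negative to each of them (-0.63, -0.63 and -0.44), and Apod is at most 0.34 in size.

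The 5 genes most like Lcn2 by group-centred r over 12 arrays, among genes above the median level, were Dad1 (0.93), Plp2 (0.92), Cavin3 (0.91), Sh2b3 (0.91) and Abhd2 (0.90), with rho from 0.81 to 0.92. Without the 2 farthest arrays r was 0.84 to 0.90. Between the groups, none of them moved like Lcn2: Dad1 fell by 0.18 ± 0.04 (limma adjusted p = 0.010) and Cavin3 by 0.33 ± 0.08 (limma adjusted p = 0.028). The Cavin3 call was lost when control replicate 3 or 6 or anti-FGFR1 replicate 1, 2 or 4 was left out. Neither gene passed once the 3' to 5' covariate was added. Plp2 (-0.28), Sh2b3 (-0.08) and Abhd2 (-0.07) did not pass. Plp2 passed with the replicate block, the muscle covariate (-0.32) and the macrophage covariate (-0.45), and Abhd2 with the macrophage covariate (-0.22). Those most like Apod on its brighter probe set, whose order of mice the dimmer one did not share, were Rab18 (0.91), Klhl7 (0.90), Rchy1, Mfn2 and Dhx33 (0.87 each), with rho from 0.72 to 0.92 and r from 0.65 to 0.86 without the 2 farthest arrays. None of these 5 passed limma, and their differences lay between -0.14 and 0.04. The likeness was searched over all genes above the median level, so high values are a product of the search.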

How the data were processed

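Values are the log2 levels that the authors deposited for 12 arrays. RMA and limma are named, without version, per the submitters' processing notes, and the genome build is not given in the sources used here. They lie between 3.16 and 14.9, array medians between 7.19 and 7.23, and the mean correlation of an array with its group was 0.993 to 0.996. They were used as deposited, and no detection calls were used. RMA tends to pull differences of dim probe sets toward 0, and arrays give no counts, so the number of arrays limits precision.

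Gene names come from the platform annotation, with symbols updated by Entrez identifier (34741 of 34945 single-gene probe sets found in the GRCm38.p6 gene table). A further 932 named several genes and 9211 were not listed, and both kinds were left out of gene tests. A gene is represented by its probe set of highest mean, unless stated. Under R 4.3.3, limma 3.58.1 (eBayes after lmFit, no covariate, two-sided) was fitted across all genes and across all single-gene probe sets, with Benjamini-Hochberg adjustment over all of them. Genes with an adjusted p under 0.05 are called and said to have risen or fallen. Means of marker lists were compared by exact permutation over 924 assignments, whose smallest p is 0.0022. The fit was tested on simulated data.

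The rule for named genes takes the members and 32 genes whatever their values, of which 2 (C3 and Ptgs1) are not analysed here. It adds up to 3 rises and 3 falls of each list with the smallest p, and the 5 genes most like Lcn2 and Apod, in all 56. Of the lists, 12 lipocalin, 11 acute-phase, 1 negative acute-phase, 3 regulator and 5 partner genes are not analysed here. The members and lists were chosen with earlier results of these data known.

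The alternatives were a second quantile normalization, centring on array medians, the replicate number as a block, leaving out each array, the 3' to 5' difference or a muscle, macrophage or neutrophil marker mean as covariate, a trended robust eBayes, the mean of a gene's probe sets and leaving out the dimmest 40% of genes. Leaving out the array lowest in muscle markers in each group was added after seeing the data.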

Additional observations from a re-analysis of the deposited data

Results flagged for a closer look

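Among the members' probe sets, named genes and marker means, 6 of 130 groups had 1 mouse apart from the other 5, where chance flags about 1 in 20. Cp in anti-FGFR1 replicate 6 was at 10.59, against 10.87 to 11.04 in the other treated mice, and remained above all controls. Bsg was at 13.1 in control replicate 2 (others 12.94 to 13.0) and at 12.79 in anti-FGFR1 replicate 2 (others 13.03 to 13.14). Ptgs2, a dim gene, was at 5.396 in anti-FGFR1 replicate 3 (others 5.537 to 5.566). The brown adipocyte marker mean was 11.86 in control replicate 1 (others 12.03 to 12.13). The skeletal muscle marker mean was 6.90 in anti-FGFR1 replicate 5 (others 10.41 to 11.58), the treated mouse with the highest Lcn2 level. Without that array Lcn2 differed by 1.61. No member probe set had a mouse apart by this measure.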

How the results depend on the processing

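All differences of the 10 member probe sets kept their sign in the 21 alternatives and moved by less than the within-group SD. That is a wide margin for small differences: Orm2 went from -0.11 to -0.01 with the macrophage covariate. Leaving out 1 array cannot change a sign where the groups do not overlap, as for Lcn2 and Apod. The replicate block and the trended robust eBayes are among the 21 and cannot move a difference in this design, so they are no check of its size. Whether the numbers shared by the groups' replicates pair the mice is not settled by the values. The deviations of mice with the same number correlated above 0.1 in 3 of 6 pairs (-0.168 to 0.245). Of the 12 arrays, 4 correlated best with their own number. With the replicate block 1337 genes were called, and 0 partners rose (Ptges was lost). The 3' to 5' covariate gave 688 calls (281 higher, 407 lower) and 950 probe sets, with 0 lipocalin relatives rising, 2 acute-phase genes rising and 2 falling, and 1 regulator falling. With the macrophage covariate 1 lipocalin relative and 1 negative acute-phase gene fell (both Rbp4), and 1 regulator rose and 7 fell. A second quantile normalization, the muscle covariate and the neutrophil covariate each gave 1 regulator rising, and the mean of probe sets 1 rising and 5 falling. The filter on dim genes gave 2 partners rising. Without the array lowest in muscle markers in each group, 1 regulator and 0 partners rose, 1596 probe sets were called, the brown adipocyte mean differed by 0.140 (adjusted p = 0.0926) and Lcn2 with Serpina3n was at r = 0.533. Centring gave 0.143 for the brown adipocyte mean (adjusted p = 0.0606). Leaving out 1 array gave 0 to 1 regulators rising, 0 to 2 partners rising, 0.110 to 0.164 for the brown adipocyte mean, 0.0667 to 0.101 for the liver marker mean and r of 0.637 to 0.891 for Lcn2 with Serpina3n. The cause of these changes was not tested. Hp near the top of the range and Orm2, Saa1, Saa2 and Il6 near its floor limit what their differences can show.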
